A study of Mus musculus with 4 samples.

Results

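The 10 genes described here encode chromatin regulators that the oligodendrocyte (OL) lineage needs, and they are the rows whose symbol equals Hdac1, Hdac2, Hdac3, Hdac11, Ezh2, Eed, Smarca4, Chd7, Chd8 or Prmt5. Each symbol matched 1 of the 53465 entries in the count files, and all 10 passed the filter on low counts that left 15766 genes for testing. The rule uses symbols and no measured value. They were measured by RNA-Seq in 1° mouse oligodendroglial cell (OGC) cultures, which were prepared from forebrain of mice at postnatal day 2 to 4, shaken off, depleted of microglia and kept for 3 days under differentiating conditions. The 2 ctrl preparations were Zfp276 flox/flox without Cre. The 2 Zfp276cko preparations carried the Sox10::Cre transgene and Zfp276 flox/flox, so that both genotypes shared the floxed alleles of Zfp276, a zinc finger protein gene. Sox10::Cre is a BAC transgene that recombines in the OL lineage from the progenitor (OPC) stage on, and other cells in the dish keep the gene. A Rosa26 stopflox tdTomato allele was crossed into the mice used for mouse OPC culture, the background was mixed C3H x C57Bl/6J, both sexes were used, and each preparation pooled several mice. In a bulk library, fewer cells of a type and less RNA per cell cannot be told apart.

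Histone deacetylases remove acetyl groups from histone tails and work in corepressor complexes, and in OPCs they are known for silencing genes that hold back differentiation. Polycomb repressive complex 2 (PRC2) methylates lysine 27 of histone H3, with Ezh2 as its catalytic subunit and Eed as the subunit that reads the mark. Smarca4 is an ATPase of the BAF remodelling complex, Chd7 and Chd8 are ATPases of the CHD family, and Prmt5 places symmetric dimethyl marks on arginines. Loss of several of them in the OL lineage is known to delay or reduce the formation of OLs.

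The ctrl libraries held 21311469 and 21068322 counted reads and the Zfp276cko libraries 25265366 and 26599809. Zfp276 itself had 1648 and 2230 normalized counts in ctrl and 490 and 503 in Zfp276cko, which was 25.6% of the ctrl mean. Normalized counts are reads scaled to the mean effective library size. Cre removes exons 2 to 5, so that reads from the other exons still count for the gene. The study relates the remaining expression to an incomplete deletion, and the part of either was not tested here. The log2 fold change of Zfp276 was −1.97 (SE 0.18), with an adjusted p of 0.0962 in edgeR's quasi-likelihood test and 1.17e-14 in DESeq2. The ctrl replicates stood apart from each other. A difference of 2-fold or more between replicates was found for 12.7% of 14324 genes in ctrl, but for 0.307% in Zfp276cko (genes whose normalized counts averaged 20 or more). Therefore the fold change of each regulator is also given with either ctrl replicate left out. A comparison of 2 libraries with 2 cannot go below p = 0.333 in an exact permutation test.

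None of the 10 regulators passed the test between the genotypes. With edgeR, 0 of 10 were called under the thresholds used here (adjusted p ≤ 0.05, |log2 fold change| ≥ 0.6, mean normalized count ≥ 20), beside 0% of all tested genes. With DESeq2 at the same thresholds, 0 of 10 were called beside 5.29% of all genes tested by that tool, and the adjusted p of the regulators lay between 0.691 and 0.994. An unadjusted edgeR p of at most 0.05 was found for 0 of 10, beside 15.6% of all tested genes, and the smallest was 0.179 for Chd7. The log2 fold changes ranged from −0.20 for Chd7 to 0.21 for Hdac1. Their median was −0.04, beside −0.0013 over all tested genes. The median of the absolute values was 0.0866, beside 0.229 over all tested genes and 0.17 over the 6304 genes with at least the mean count of the lowest regulator. Of those 6304 genes, 19.4% had an unadjusted edgeR p of at most 0.05. For 8 of the 10 the 95% interval of the log2 fold change lay within −0.6 to 0.6, beside 34.3% of all tested genes. The exceptions were Hdac1 and Ezh2, whose intervals reached past 0.6. The width of an interval depends on the counts, and the share of 34.3% was not taken over genes with like counts. It is therefore not a like comparison.

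For 3 of the 10, the 2 Zfp276cko values were both lower than the 2 ctrl values (Hdac2, Chd7 and Chd8), beside 23.7% of all tested genes. Both were higher for 0 of 10, beside 26.8% of all tested genes. Among those 6304 genes these shares were 35.9% and 18.9%.

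**Figure D1:**
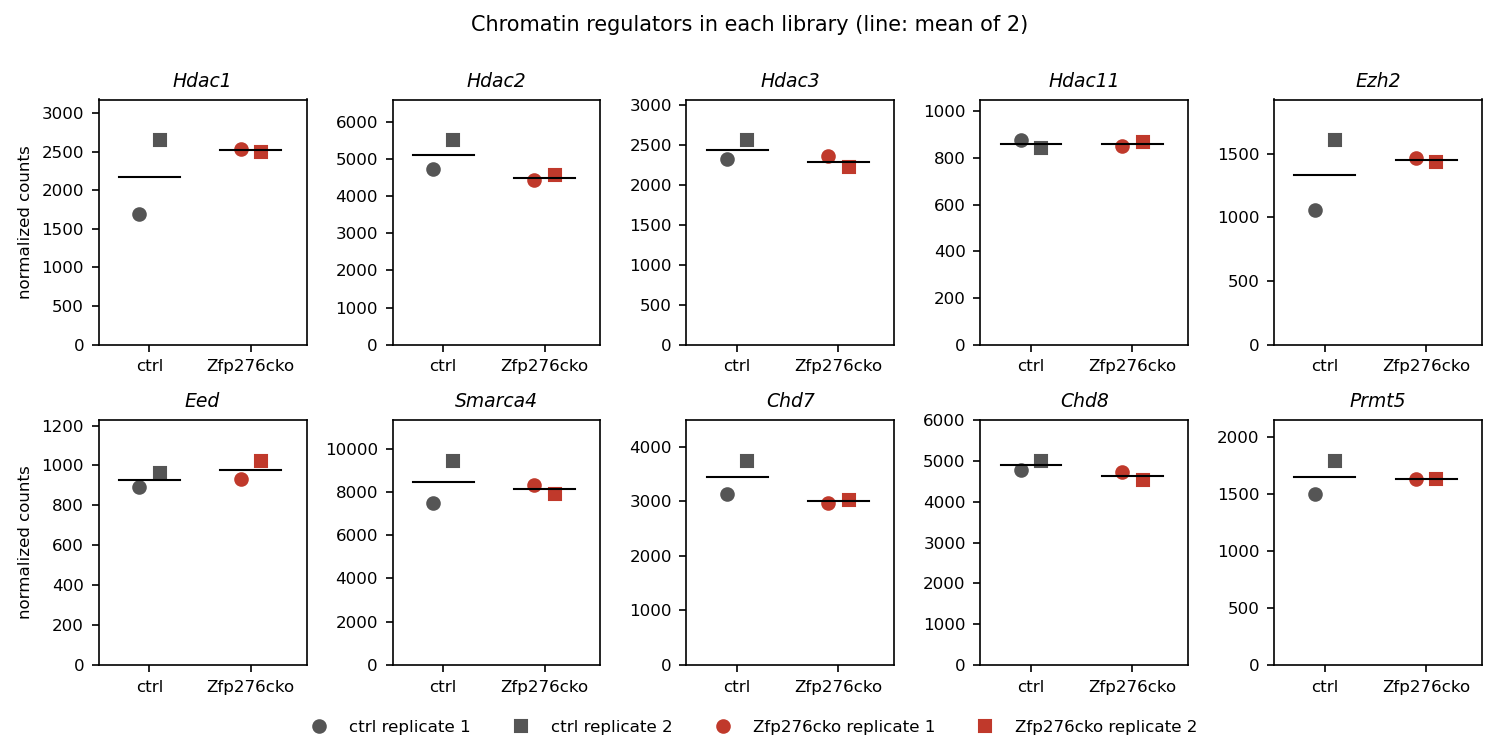
Normalized counts of each of the 10 regulators on a linear axis from 0, with 1 point per library (circle, replicate 1; square, replicate 2; grey, ctrl; red, Zfp276cko) and a line at the mean of 2. Hdac1 ranged from 1697 to 2646 within ctrl while its Zfp276cko libraries were at 2539 and 2498, and of all 10 genes Hdac2, Chd7 and Chd8 had genotypes that did not overlap.

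**Figure D2:**
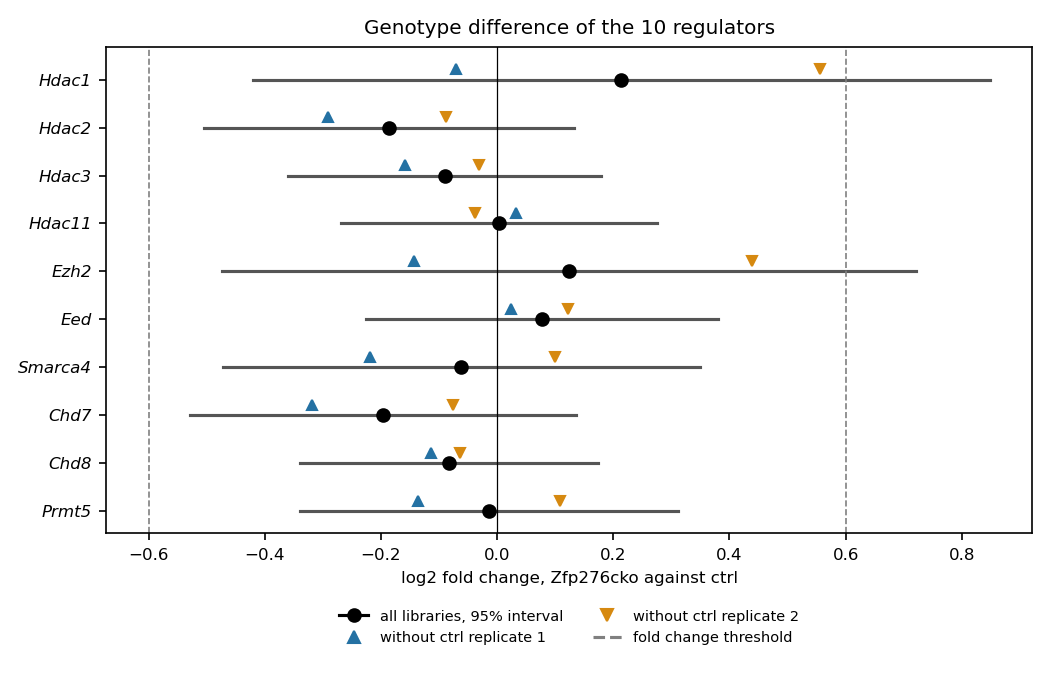
Log2 fold change (Zfp276cko against ctrl) of the 10 regulators, with the edgeR estimate from all libraries as a black point, its 95% interval as a bar, the estimates without ctrl replicate 1 or 2 as triangles, and the fold change threshold of 0.6 in each direction as dashed lines. The estimates for Hdac1 and Ezh2 changed sign between the triangles, from −0.070 to 0.56 and from −0.14 to 0.44.

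Among the deacetylases, Hdac1 and Hdac2 are close paralogs that serve as catalytic subunits of the Sin3, NuRD and CoREST complexes. Hdac1 (chr4:129516104-129542713, minus strand; mm10, as all positions here) had 1697 and 2646 normalized counts in ctrl and 2539 and 2498 in Zfp276cko. Its lowest and its highest library were both ctrl, so that the Zfp276cko values lay inside the ctrl range. The means were 2171 ± 671 and 2519 ± 28.7 (SD, n = 2). The estimated difference was 0.21 on the log2 scale (SE 0.23, 95% interval −0.42 to 0.85, edgeR adjusted p = 0.710). Leaving out ctrl replicate 1 gave −0.070 and leaving out ctrl replicate 2 gave 0.56, so that of the 10 genes it depended most on which ctrl library was used.

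For Hdac2 (chr10:36974544-37001889, plus strand) normalized counts of 4727 and 5497 in ctrl stood against 4429 and 4553 in Zfp276cko. Both Zfp276cko libraries were below both ctrl libraries. On the log2 scale the difference was −0.19 (SE 0.12, 95% interval −0.50 to 0.13, edgeR adjusted p = 0.508), and it kept its sign without ctrl replicate 1 (−0.29) and without ctrl replicate 2 (−0.09). Per kilobase of exons, Hdac1 reached 0.466 and 0.625 of the Hdac2 level in ctrl and 0.745 and 0.713 in Zfp276cko. The ratios of the genotypes did not overlap, with means of 0.546 ± 0.112 and 0.729 ± 0.0226 (SD, n = 2), and 0.333 is the smallest p that an exact test of this ratio could give.

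Hdac3, on chromosome 18, is the deacetylase of the NCoR and SMRT corepressors. It had 2319 and 2557 normalized counts in ctrl and 2362 and 2218 in Zfp276cko, and the genotypes overlapped. Its log2 fold change was −0.09 (SE 0.10, 95% interval −0.36 to 0.18, edgeR adjusted p = 0.712), with −0.16 if ctrl replicate 1 was left out and −0.03 if ctrl replicate 2 was. Hdac11 (chr6:91156665-91174692, plus strand), the only class IV deacetylase, had the fewest counts of the 10, with 876 and 843 counts in ctrl, against 853 and 869 in Zfp276cko. All 4 libraries lay within a narrow range, and the log2 fold change was 0.0031 (SE 0.10, 95% interval −0.27 to 0.28, edgeR adjusted p = 0.993), with 0.03 and −0.04 in the same order. Its exons share 15.4% of their bases with Gm44002 and 2.49% with Gm14573 on the opposite strand, and the strand setting of the counting is not given in the sources used here.

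Of the PRC2 subunits, Ezh2 (chr6:47530139-47595341, minus strand) had 1061 and 1605 normalized counts in ctrl and 1469 and 1436 in Zfp276cko. As for Hdac1, the lowest and the highest library were both ctrl. The means were 1333 ± 384 and 1453 ± 23.3 (SD, n = 2). The log2 fold change was 0.12 (SE 0.22, 95% interval −0.47 to 0.72, edgeR adjusted p = 0.827), with −0.14 without ctrl replicate 1 and 0.44 without ctrl replicate 2. Eed (chr7:89954654-89980983, minus strand) had 892 and 964 counts in ctrl, against 934 and 1024 in Zfp276cko. Its genotypes overlapped, and its ctrl replicates were closer together than those of Ezh2. For Eed the log2 fold change was 0.08 (SE 0.11, 95% interval −0.23 to 0.38, edgeR adjusted p = 0.784), with 0.02 if ctrl replicate 1 was left out and 0.12 if ctrl replicate 2 was. Suz12, which holds PRC2 together, was at −0.02 on the log2 scale, and Ezh1, the second catalytic subunit, at 0.21, with edgeR adjusted p of 0.970 and 0.570. The ratio of Ezh2 to Ezh1 per kilobase of exons was 1.84 and 3.47 in ctrl and 2.41 and 2.41 in Zfp276cko. The widest gap was thus between the ctrl replicates. Exons of Eed share 6.82% of their bases with E230029C05Rik and those of Ezh2 share 2.61% with Gm26625, both on the opposite strand.

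Between the ctrl replicates, 9 of the 10 regulators were higher in replicate 2, Hdac11 being the exception, and the gaps of Hdac1 and Ezh2 were the widest. The gap of replicate 2 over replicate 1 was 0.60 for Ezh2 and 0.64 for Hdac1 on the log2 scale, and 0.61 for the median of 28 cell cycle genes, of which 27 were higher in ctrl replicate 2. Further lists with a positive median gap included neuron markers (1.52, higher in replicate 2 for 11 of 11 tested), astrocyte markers (0.59, 5 of 9, although their summed counts were lower there), lysine 27 demethylases (0.52, 3 of 3), DNA methylation (0.41, 9 of 10), OL markers (0.35, 8 of 12) and the BAF complex (0.21, 25 of 30). Median gaps in the other direction were found for OPC markers (−0.18), microglia markers (−0.87) and fibroblast and vessel markers (−3.90). Over all tested genes the median gap was 0.0045. The summed normalized counts of the 28 cell cycle genes came to 31202 and 45755 in ctrl, against 42830 and 42688 in Zfp276cko, with Mki67, a marker of cycling cells, as the most counted (3723 and 6679, then 5798 and 5935). Their median log2 fold change between the genotypes was 0.26, and it was 0.02 when ctrl replicate 1 was left out and 0.66 when ctrl replicate 2 was. The part of proliferation or of other cell types in the Ezh2 and Hdac1 values was not tested.

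The promoters of Ezh2 and Eed are shown because these subunits of 1 complex differed in their gap between the ctrl replicates (0.60 and 0.11). Both are RefSeq sequences of GRCm38.p6 from 250 bases before to 50 bases after the start that RefSeq gives, read 5′ to 3′ on the minus strand, at chr6:47594981-47595280 for Ezh2 and chr7:89980927-89981226 for Eed. For Ezh2 this start lies downstream of the outermost GENCODE start, so that the whole window falls inside the gene span given above. Capitals mark letters that match a word of the E2F motif, named for a family of cell cycle factors.
Ezh2: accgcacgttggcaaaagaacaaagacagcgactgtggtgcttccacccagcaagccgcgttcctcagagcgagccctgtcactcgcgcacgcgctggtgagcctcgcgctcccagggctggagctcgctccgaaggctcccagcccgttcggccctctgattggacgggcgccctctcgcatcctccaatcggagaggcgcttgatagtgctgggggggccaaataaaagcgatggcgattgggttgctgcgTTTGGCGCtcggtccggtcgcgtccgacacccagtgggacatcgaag
Eed: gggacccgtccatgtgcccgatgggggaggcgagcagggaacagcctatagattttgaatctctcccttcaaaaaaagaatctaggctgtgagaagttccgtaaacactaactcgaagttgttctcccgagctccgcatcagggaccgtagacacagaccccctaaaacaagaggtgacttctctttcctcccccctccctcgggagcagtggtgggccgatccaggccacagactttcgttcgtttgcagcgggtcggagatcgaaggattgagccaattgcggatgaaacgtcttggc

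The words searched were TTTCCCGC, TTTCGCGC, TTTGCCGC and TTTGGCGC on both strands. Of the 7 regulators with a promoter in the table, 1 held such a word, and in Ezh2 it began 3 bases after the RefSeq start base. The share was 2.26% of all 32851 promoters and 25% of the 24 promoters of cell cycle genes. The 7 promoters had a median GC content of 66.7% and a median of 26 CpG, against 52.7% and 7 for all promoters, and the E2F words hold CG, so that the share of all promoters is not a like comparison. The letters CCAAT, searched on both strands, were in 5 of the 7 (Ezh2, Eed, Hdac11, Chd8 and Prmt5), in 37.4% of all promoters and in 83.3% of the promoters of cell cycle genes. Hdac1, Hdac3 and Chd7 had no matched promoter. A match is a description of the letters and not a binding site.

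Among the remodellers, Smarca4 (chr9:21616169-21704230, plus strand), also known as Brg1, had 7507 and 9456 normalized counts in ctrl and 8317 and 7932 in Zfp276cko. The Zfp276cko values lay inside the ctrl range. For Smarca4 the log2 fold change was −0.06 (SE 0.15, 95% interval −0.47 to 0.35, edgeR adjusted p = 0.878), with −0.22 without ctrl replicate 1 and 0.10 without ctrl replicate 2. Exons of Smarca4 share 1.53% of their bases with Gm27373 on the same strand. The paralog of Smarca4, Smarca2, was at −0.06. Per kilobase of exons, Smarca4 exceeded Smarca2 7.91-fold and 9.44-fold in ctrl and 9.04-fold and 8.30-fold in Zfp276cko, so that the genotypes overlapped. By the length of the longest coding transcript, which is much shorter for Smarca2, the mean ratio was 3.66.

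Chd7 (chr4:8690406-8867659, plus strand), an ATPase recruited to enhancers, had 3134 and 3746 counts in ctrl, against 2974 and 3029 in Zfp276cko. The genotypes did not overlap, with the Zfp276cko mean at 87.3% of ctrl. This gave a log2 fold change of −0.20 (SE 0.12, 95% interval −0.53 to 0.14, edgeR adjusted p = 0.506). Leaving out ctrl replicate 1 gave −0.32 and leaving out ctrl replicate 2 gave −0.08. Chd8 (chr14:52198151-52257780, minus strand), its paralog, had 4794 and 5013 counts in ctrl, against 4733 and 4526 in Zfp276cko. All Zfp276cko values were again lower, by a smaller margin. Its log2 fold change was −0.08 (SE 0.09, 95% interval −0.34 to 0.17, edgeR adjusted p = 0.723), with −0.11 and −0.06 in the same order. The ratio of Chd8 to Chd7 per kilobase of exons was 1.28 and 1.12 in ctrl and 1.33 and 1.25 in Zfp276cko. Exons of Chd8 share 5.77% of their bases with Gm26590 on the opposite strand.

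Prmt5 (chr14:54507187-54517525, minus strand), the main enzyme for symmetric arginine dimethylation, had 1497 and 1790 normalized counts in ctrl and 1628 and 1629 in Zfp276cko. The Zfp276cko replicates were nearly equal and lay between the ctrl replicates. The log2 fold change was −0.01 (SE 0.12, 95% interval −0.34 to 0.31, edgeR adjusted p = 0.970), with −0.14 without ctrl replicate 1 and 0.11 without ctrl replicate 2. Its cofactor Wdr77 was at −0.02 and its adaptor Clns1a at 0.0008 on the log2 scale. Prmt1, the main enzyme for asymmetric dimethylation, was at 0.05.

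Levels were compared between genes per kilobase of merged exons, over all 4 libraries. Smarca4 (1282 normalized counts per kilobase, range 1159 to 1460) and Hdac2 (1073, 990 to 1229) were highest, and their ranges overlapped. Hdac1 (681, 493 to 768) and Hdac3 (583, 547 to 631) followed and overlapped each other. Prmt5 was at 413 (378 to 452), apart from its neighbours on either side. Chd8 (289, 274 to 303) came next and did not reach down to the Eed range (249, 233 to 268). Chd7 (234, 216 to 272), Hdac11 (224, 219 to 228) and Ezh2 (209, 159 to 240) closed the order, and the ranges of these overlapped one another and, except for Hdac11, that of Eed. With the length of the longest coding transcript, which was added after the data were seen, Hdac2 took the top place before Smarca4, Hdac3 came before Hdac1, and Ezh2 moved from place 10 to 7 and Chd7 from 8 to 10.

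The profile of each regulator over the 4 libraries was compared with 188 genes of related complexes by the Euclidean distance between log2 values centred on their mean. Hdac1 was nearest to Ezh2 (0.1), followed by Kat6b and Cbx2. Ezh2 was nearest to Dnmt1 (0.0612), the maintenance DNA methyltransferase, followed by Kat6b and Cbx2. Hdac2 was nearest to Chd1l (0.0284), Chd7 (0.0305) and Smarce1, and Chd7 to Hdac2, Chd1l and Smarce1. Hdac3 was nearest to Chd2, Chd8 and Hdac5, and Chd8 to Chd2, Hdac5 and Hdac3. Eed was nearest to Chd1 (0.0233), Pbrm1 and Kdm6a, and Smarca4 to Kmt2b, Srcap and Coprs. Hdac11 was nearest to Brd9, Bicral and Baz2a, and Prmt5 to Phc2 (0.0259), Smarcc1 and Chd4. Each profile has only 4 values. Those of Hdac1 and Ezh2 mainly hold the gap between the ctrl replicates (0.64 and 0.60, beside −0.02 and −0.03 between the Zfp276cko replicates). Genes that hardly vary, such as Hdac11 and Brd9, are also near each other. Shared regulation was not tested.

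**Figure D3:**
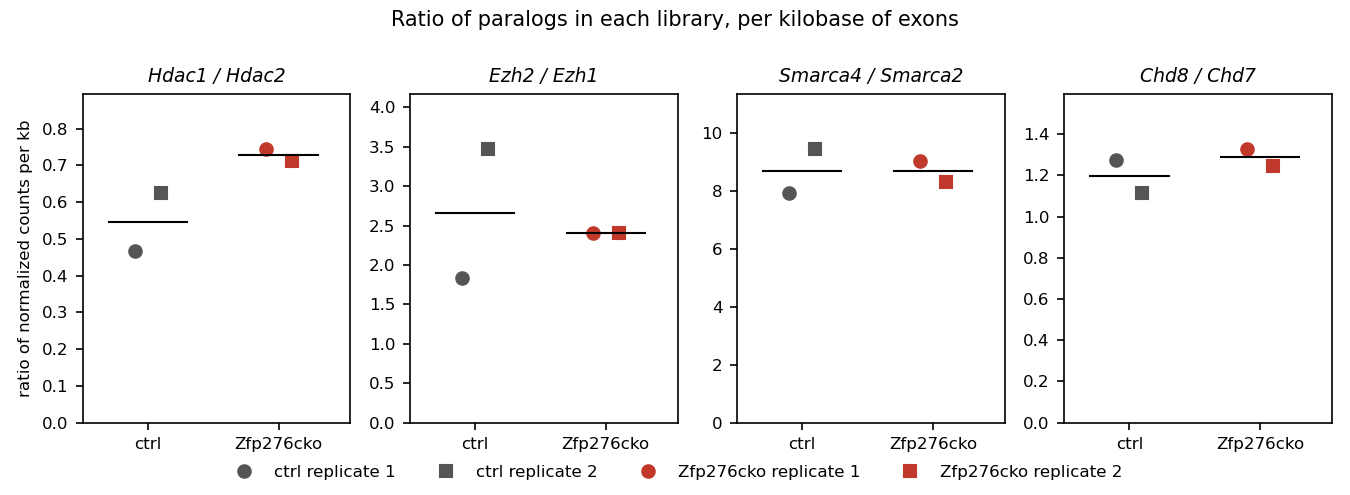
Ratio of normalized counts per kilobase of exons between 4 pairs of paralogs in each library, on linear axes from 0, with lines at the mean of 2 (circle, replicate 1; square, replicate 2; grey, ctrl; red, Zfp276cko). Hdac1 over Hdac2 did not overlap between the genotypes (0.466 and 0.625 against 0.745 and 0.713), and Ezh2 over Ezh1 was furthest apart between the ctrl replicates (1.84 and 3.47).

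The other genes of these complexes and families were read from 12 lists with 188 tested genes, the regulators included. Of the 188, 0 were called by edgeR and 1 was called by DESeq2, beside 0% and 5.29% of all genes. The median log2 fold change was −0.05. The median of the absolute values was 0.123, beside 0.229 over all tested genes and 0.17 over the 6304 genes named above. Not all of the 188 are among those 6304. An unadjusted edgeR p of at most 0.05 was found for 13 genes that were lower and 3 that were higher in Zfp276cko, together 8.51% beside 15.6% of all tested genes. The genotypes did not overlap for 55 lower (29.3%) and 28 higher genes (14.9%), beside 23.7% and 26.8%. For 132 of the 188 the 95% interval lay within −0.6 to 0.6, beside 34.3% of all tested genes, a share that was not matched for counts.

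The gene called by DESeq2 was Sirt2, a deacetylase of tubulin and histones that is abundant in OLs. It had 38670 and 61080 normalized counts in ctrl and 29107 and 28729 in Zfp276cko. The log2 fold change was −0.79 (SE 0.26), with an adjusted p of 0.288 in edgeR and 0.0436 in DESeq2. Without ctrl replicate 1 it was −1.08, and without ctrl replicate 2 it was −0.43, under the fold threshold. Kmt2d, a methyltransferase for lysine 4 of histone H3, had 4212 and 4132 counts in ctrl, against 3143 and 3059 in Zfp276cko. Its adjusted p was 0.174 in edgeR and 0.0321 in DESeq2, where 6.03% of all genes had an adjusted p of 0.05 or less, and its log2 fold change of −0.43 was under the fold threshold.

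The counts of genes without overlap in each list stand beside 23.7% lower and 26.8% higher among all tested genes, and 35.9% and 18.9% among the 6304 with at least the mean count of the lowest regulator. Of 18 deacetylases, the genotypes did not overlap for 5 that were lower and 5 that were higher, and the median log2 fold change was 0.01. The smallest p in each direction belonged to Sirt2 and to Sirt5 (0.61, edgeR adjusted p = 0.335). Hdac8, the remaining class I enzyme, was at 0.04. Among 32 corepressor partners, 12 were lower and 4 higher without overlap, with a median of −0.08. Sap18, a subunit of the Sin3 complex, was at −0.31 and Mta3, a subunit of NuRD, at 0.49, with edgeR adjusted p of 0.296 and 0.437. Mta3 was at 0.85 without ctrl replicate 1 and at 0.18 without ctrl replicate 2. The histone chaperones Rbbp4 and Rbbp7, shared by deacetylase complexes and PRC2, were at −0.08 and −0.03. Yy1, a zinc finger protein that recruits deacetylases, was at −0.25 with an edgeR adjusted p of 0.305.

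In PRC2, 13 genes were tested, with 2 lower and 2 higher without overlap and a median of −0.02. Jarid2, which targets PRC2, was at −0.17, and Epop was at −0.61 with an edgeR adjusted p of 0.393. Both depended on the ctrl library. Without ctrl replicate 1 Jarid2 was at −0.33 and Epop at −0.92, and without ctrl replicate 2 they were at −0.02 and −0.24. In PRC1, which ubiquitylates histone H2A, 5 of 19 genes were lower and 4 higher without overlap. Rnf2, its catalytic subunit, had 1339 and 1327 normalized counts in ctrl and 1669 and 1916 in Zfp276cko (log2 fold change 0.43, edgeR adjusted p = 0.207). Of the 3 demethylases that oppose PRC2, 1 (Kdm6a) was higher without overlap at 0.10, and Kdm6b was at −0.09.

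In the BAF complex, 6 of 30 genes were lower and 1 was higher without overlap, and the median was −0.03. Brd7 was at −0.28 (edgeR adjusted p = 0.248) and Smarcd3, the higher one, at 0.11. The core subunits Smarcc1, Smarcb1 and Arid1a were at −0.03, −0.14 and −0.13. Among the 10 CHD genes, 4 were lower and 0 higher without overlap. Chd4, the ATPase of NuRD, was at −0.04, and Chd9 at 0.10. Of 14 ISWI and INO80 genes, 4 were lower and 4 higher. Smarca5, the ISWI ATPase, had 4201 and 4537 counts in ctrl, against 3140 and 3451 in Zfp276cko (log2 fold change −0.41, edgeR adjusted p = 0.218). Its paralog Smarca1 was at 0.42 (edgeR adjusted p = 0.415), with 0.69 without ctrl replicate 1 and 0.18 without ctrl replicate 2.

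Of the 13 arginine methyltransferase genes, 3 were lower and 1 higher without overlap. Carm1 was at −0.20 and Prmt2 at 0.18, with edgeR adjusted p of 0.374 and 0.637. Among 13 histone acetyltransferases, 4 were lower and 2 higher. Ep300 was at 0.0020, Ncoa1 at −0.30 and Ncoa2 at 0.17. Of 10 genes of DNA methylation, 2 were lower and 4 higher, and the median was 0.13. This median changed sign with the ctrl library, with −0.08 without ctrl replicate 1 and 0.25 without ctrl replicate 2. Dnmt3a, a de novo methyltransferase, was at −0.39, and Tet2, which oxidizes methylcytosine, at 0.36, with edgeR adjusted p of 0.403 and 0.268. Among 15 genes of lysine 4 and lysine 9 methylation of histone H3, 8 were lower (53.3%, beside the 23.7% and 35.9% above) and 0 higher without overlap, with a median of −0.12. Kmt2d had the smallest p of the list, and Ehmt2 was at 0.01.

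**Figure D4:**
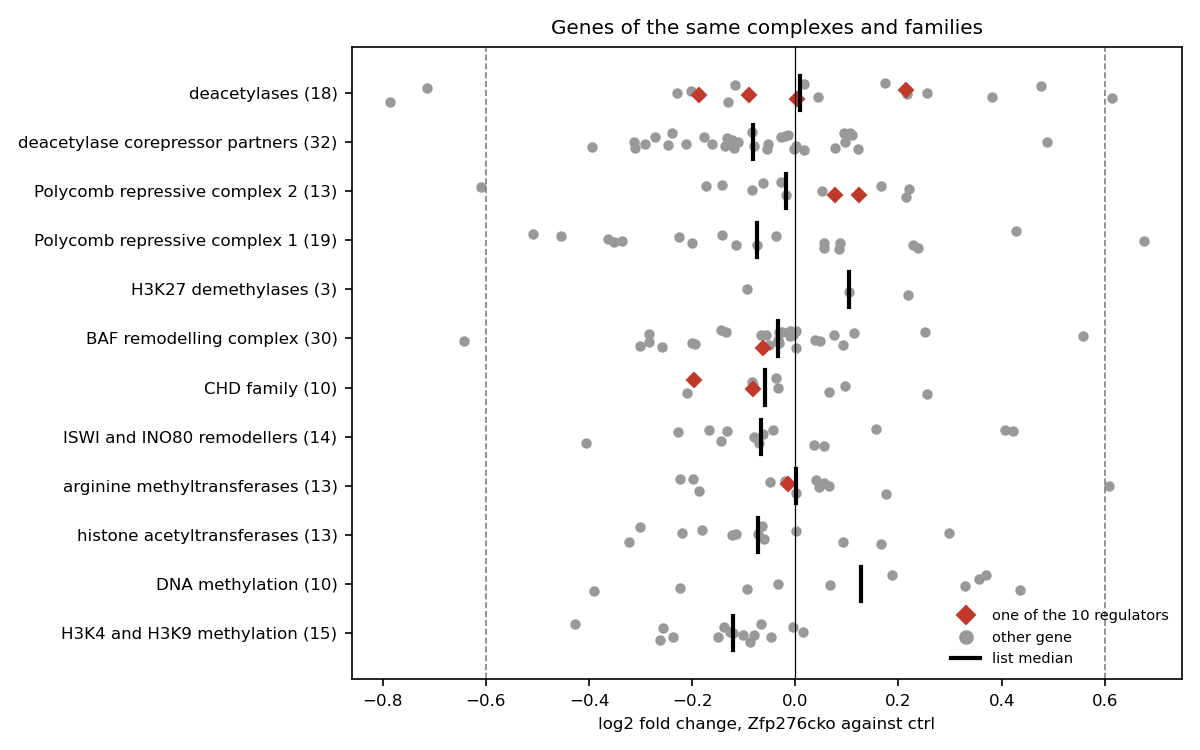
Log2 fold change (Zfp276cko against ctrl) of every tested gene in 12 lists of chromatin regulators, with the number of genes in brackets, the 10 regulators as red diamonds, other genes as grey points, the list median as a black bar and the fold change threshold of 0.6 in each direction as dashed lines. With all libraries, the regulators lie between −0.20 and 0.21, and the medians of the lists between −0.12 and 0.13. The medians reached −0.23 without ctrl replicate 1 and 0.25 without ctrl replicate 2 (not drawn).

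These regulators are described as acting on genes that set the pace of OL differentiation, and 16 such genes were read beside them. None was called by edgeR (0% of all tested genes), whereas DESeq2 called 3 as lower and 1 as higher, beside 5.29% of all genes in either direction. Olig1, a helix-loop-helix factor of the lineage, had 31743 and 28857 normalized counts in ctrl and 16810 and 16487 in Zfp276cko (log2 fold change −0.86, edgeR adjusted p = 0.123). Olig2, which recruits Smarca4, had 13537 and 12402 counts in ctrl, against 8692 and 8392 in Zfp276cko. Its log2 fold change was −0.60, with an adjusted p of 0.162 in edgeR and 0.0012 in DESeq2. Myrf, the factor that drives myelin genes, had 10348 and 13968 counts in ctrl, against 6691 and 6572 in Zfp276cko (log2 fold change −0.87, edgeR adjusted p = 0.176). Id2, an inhibitor of helix-loop-helix factors, had 3227 and 3125 counts in ctrl, against 4570 and 5211 in Zfp276cko. Its log2 fold change was 0.62, with an adjusted p of 0.153 in edgeR and 0.0066 in DESeq2. Over all 16 genes, 7 were lower (43.8%) and 2 higher (12.5%) without overlap, beside 23.7% and 26.8% of all tested genes and 35.9% and 18.9% of the 6304 genes named above.

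The other 12 were not called by either tool. Tcf7l2 (−0.39), Zfp488 (−0.45), Zeb2 (−0.12) and Sp7 (−0.09) were lower and Creb3l1 (0.39) was higher without overlap. Sox10 (−0.09), Sox2 (−0.12), Nkx2-2 (0.05), Id4 (0.18), Hes5 (−0.39) and Hes1 (−0.55) overlapped. Sox11, a factor of immature cells, had 826 and 2009 counts in ctrl, against 1528 and 1823 in Zfp276cko, with a log2 fold change of 0.24.

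**Figure D5:**
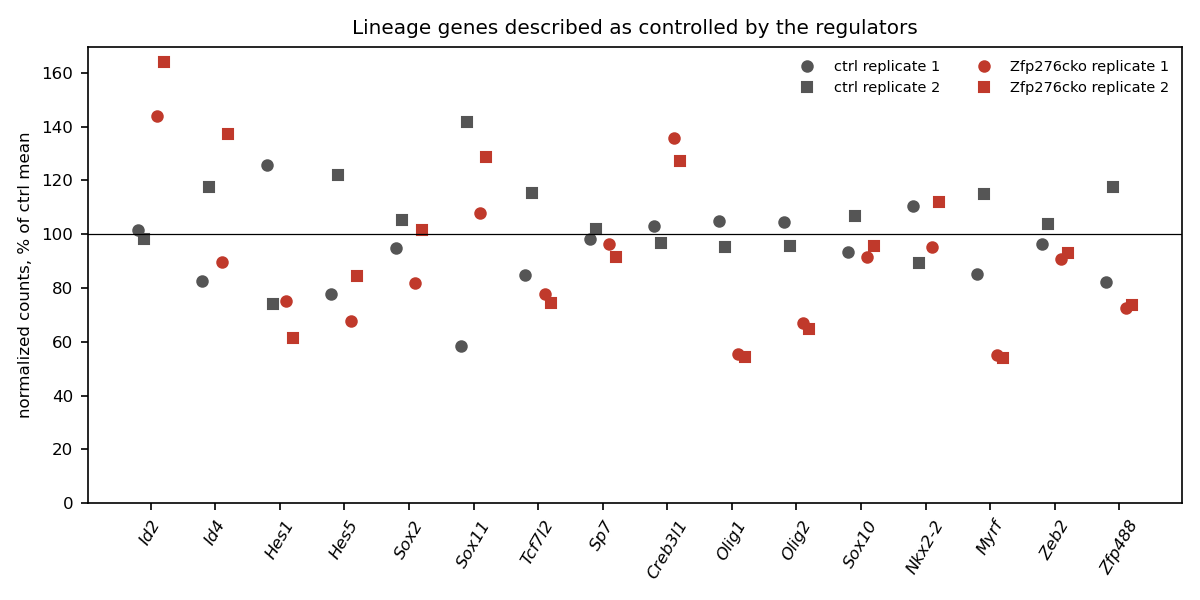
Normalized counts of 16 lineage genes as a percentage of the ctrl mean (horizontal line at 100), with 1 point per library (circle, replicate 1; square, replicate 2; grey, ctrl; red, Zfp276cko). Olig1, Olig2 and Myrf lie below and Id2 above both ctrl libraries, whereas Sox11 ranges most widely within ctrl.

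The labelled cell type was checked by summed normalized counts of markers. The 12 OL markers summed to 311378 and 423110 in ctrl and 212651 and 217346 in Zfp276cko, with Mbp as the most counted. Of these, DESeq2 called 8 as lower, among them Mbp, Mog and Myrf, where it called 5.29% of all genes in either direction. Of the 12 OL markers, 10 had a log2 fold change below 0, whereas Aspa (0.48) and Cldn11 (0.01) were above 0. The 8 OPC markers summed to 190586 and 142232 in ctrl and 108351 and 106802 in Zfp276cko, with Gpr17 as the most counted. DESeq2 called Gpr17, C1ql1 and Cspg5 as lower. Pdgfra (−0.13), Ptprz1 (−0.25) and Cspg4 (−0.59) had log2 fold changes below 0 and were not called. Lhfpl3 (0.13) and Sox6 (0.05) were above 0.

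Markers of other cells were present, and the regulators are expressed in many cell types. The 12 microglia markers summed to 55499 and 29595 in ctrl and 41798 and 43761 in Zfp276cko, with C1qb as the most counted. DESeq2 called 1 of the 12, Ptprc, as higher, where it called 5.29% of all genes in either direction. Of the 12, 5 had a log2 fold change below 0, among them Csf1r (−1.12) and Trem2 (−1.01), and none of these was lower without overlap. The 10 astrocyte markers, led by Gfap, summed to 48711 and 45570 in ctrl and 44876 and 42524 in Zfp276cko, and Gjb6 was at 0 in every library. The 12 neuron markers, led by Map2, summed to 23545 and 39168 in ctrl and 26400 and 28739 in Zfp276cko, and Slc17a7 had 9 counts or fewer in every library. The 10 fibroblast and vessel markers summed to 9063 and 568 in ctrl and 503 and 443 in Zfp276cko. Most of the first of these values came from Col1a2 and other genes of ctrl replicate 1, where Col1a2 had 2703 counts beside 42 in ctrl replicate 2, and Cldn5 was at 0 in every library. DESeq2 called 1 gene of this list (Acta2) and 1 of the 28 cell cycle genes (Ccnd1) as lower, beside the 5.29% above. The part of these cells in the values of the regulators was not tested.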

How the data were processed

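RNA-Seq libraries (TruSeq Stranded mRNA, single-end reads) were made from 2 ctrl and 2 Zfp276cko cultures. Reads were aligned by the authors to mm10 (STAR 2.5.4a), and the deposited values are raw counts, 1 whole number per gene symbol and library. The study's methods name HTSeq for counting, whereas the submitters' processing notes list featureCounts 1.5.1. The strand setting is not given in the sources used here. Libraries held between 21068322 and 26599809 counts. The lowest count behind one of the 10 genes was 738, with a counting error of 3.68%.

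Counts were filtered with filterByExpr (15766 genes, 99.9% of counts), scaled by TMM and compared with edgeR 4.0.16 (quasi-likelihood test, Benjamini-Hochberg adjustment over all tested genes; R 4.3.3). SE and 95% intervals of log2 fold changes came from this fit. Entries that share a symbol (220) were kept apart. DESeq2 1.42.0 and limma 3.58.1 were alternatives, and the scripts were tested on simulated data. Adjusted p-values set each difference against the spread between 2 preparations per genotype, and each tool estimates this spread with the help of other genes. The members, gene lists and tests were chosen with earlier results of these data known. Named genes were the 10 members, their close paralogs and partners, the gene with the smallest p of each list in each direction, all lineage genes read beside them, list genes called by edgeR or DESeq2, the 3 nearest profiles of each member, Zfp276, and the most counted and near-absent markers. A few of the genes named by it are not reported here. Gene positions and exon lengths came from GENCODE vM21. Promoters came from RefSeq (GRCm38.p6). Ezhip, on the PRC2 list, had no entry. Proteins were not analysed here.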

Additional observations from a re-analysis of the deposited data

How the results depend on the processing

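None of the 10 genes was called with the size factors of DESeq2, with no filter on low counts, with at least 10 counts in every library, with DESeq2, with limma voom and genotype weights, with the replicate block, at an unadjusted p, or without any 1 library. The number of all genes called was 0 lower and 0 higher. It was 8 higher with no filter, 338 lower and 449 higher with DESeq2, 72 and 133 with limma voom and genotype weights, and 476 and 806 at an unadjusted p. Without 1 library it ranged from 0 to 1286 lower and from 0 to 1792 higher (952 and 1689 without ctrl replicate 1, 1286 and 1792 without ctrl replicate 2, 0 and 0 without either Zfp276cko replicate). The cause of the differences between the tools was not tested. Without a ctrl library the spread comes from the Zfp276cko pair alone, and the lone ctrl library is assumed to vary like that pair. Adjusted p then fell to 1.04e-05 for Hdac1 (0.56) and 0.000468 for Ezh2 (0.44) without ctrl replicate 2, and to 0.00372 for Hdac2, 0.00188 for Chd7 and 0.0258 for Smarca4 without ctrl replicate 1, all under the fold threshold.

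Of the 60 values of the 10 genes under the 6 alternatives that keep all libraries and refit the model, 3 changed sign. These were Hdac11 at −0.01159 with the size factors of DESeq2 and −0.01333 with DESeq2, and Prmt5 at 0.01034 with no filter. Of 40 values without 1 library, 6 did. Ranges were −0.070 to 0.56 for Hdac1, −0.14 to 0.44 for Ezh2, −0.038 to 0.032 for Hdac11, −0.22 to 0.10 for Smarca4 and −0.14 to 0.11 for Prmt5, and −0.14 to 0.03 for the median of the 10. Genes of the 10 whose genotypes did not overlap ranged from 3 to 8 lower and from 0 to 5 higher (8 and 1 without ctrl replicate 1, 5 higher without ctrl replicate 2, 1 higher without Zfp276cko replicate 1), since fewer libraries overlap less often. Among all genes fitted, 42.2% were lower and 44.4% higher without ctrl replicate 1, 42.9% and 45% without ctrl replicate 2, 29.5% and 33.2% without Zfp276cko replicate 1, and 29.7% and 32.9% without Zfp276cko replicate 2. The median of all genes moved by −0.0144 with the size factors of DESeq2 and by 0.024 with no filter. List medians ranged from −0.23 without ctrl replicate 1 to 0.25 without ctrl replicate 2. They were negative both times for corepressor partners, PRC1, CHD genes and histone H3 lysine methylation, and differed in sign for the other families. Single genes moved too, such as Sox11 (−0.26 and 1.01), Dnmt3a (−0.60 and −0.16) and Zfp488 (−0.69 and −0.19) in the same order.

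With the replicate number as a replicate block, 0 genes were called in either direction and the median of the 10 was −0.03. Deviations of same-numbered libraries from their genotype mean had a correlation of 0.0067 over 14300 genes, so the numbers were not taken as pairs. The unadjusted 95% intervals of the 10 log2 fold changes were ±0.256 to ±0.634 wide on either side. The limit of the adjusted test was wider, since Zfp276 at −1.97 was not called by edgeR either.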
